A study of Rattus norvegicus with 8 samples.

Results

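Glypicans and syndecans, the heparan sulfate proteoglycans of the cell surface, were followed in the periodontal ligament (PDL), the connective tissue that ties the tooth root to bone. The family was chosen by the level of Gpc3, which was strongly lower at the later age in these same libraries. The listed genes are 8 in all, 4 glypicans (Gpc1, Gpc3, Gpc4 and Gpc6) and 4 syndecans (Sdc1 to Sdc4). Of these, 7 were among the 17337 gene symbols of the count table, and all 7 passed the expression filter that left 10472 tested genes. Gpc6 was not analysed here.

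The tissue was cervical PDL of untreated rats (Rattus norvegicus), cut out by laser micro-dissection, with 4 animals at postnatal day 28 (P28) and 4 at postnatal day 18 (P18). The labels name no strain, genotype or sex. Occlusal contact of the teeth is established between these ages, and the comparison asks how PDL expression differs after and before it. Total counts per library ran from 5252693 to 17803006 at P28 and from 10863769 to 26645656 at P18. P28 replicate 4, the shallowest library, stood apart in a principal component analysis, with a first score of 163 (26.9% of variance) and the remaining 7 libraries at 3.60 or below. The ligament identity of the captures was checked with 7 marker genes of ligament fibroblasts, whose summed level was 131201 to 182440 CPM at P28 and 86321 to 129341 CPM at P18. Of that sum, 96.3% to 97.8% at P28 and 95.0% to 97.5% at P18 came from Col1a1, Col3a1 and Postn, which osteoblasts also express. Aspn, also among the 7 markers, had 0 counts in every P28 library and 0 to 2 in the P18 libraries. Tnmd, the only 1 of the 6 tested markers that edgeR called, was lower at P28. Its mean was 104 CPM at P28 and 560 CPM at P18. CPM are counts scaled to the size of the library.

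Glypicans hang on the outer cell membrane by a glycosylphosphatidylinositol (GPI) anchor, whereas syndecans cross the membrane and carry a short cytoplasmic tail. Both kinds of core protein bear heparan sulfate chains, whose sulfation pattern decides which growth factors, Wnt and hedgehog proteins and matrix proteins they hold at the cell surface. In connective tissue, syndecans act beside integrins in adhesion to fibronectin, and glypicans are known as regulators of growth during development. Loss of GPC3 in humans causes an overgrowth syndrome.

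Gpc3 and Gpc4 are neighbours on chromosome X in the RefSeq gene table (assembly GRCr8), on the same strand, with 2 other protein-coding entries between them. Their start regions are shown because these were the only family members analysed whose P28 libraries all lay below all P18 libraries. Each sequence runs 5′ to 3′ on the gene's strand, from 250 bases before the start site to 50 after it, at chrX:137157549-137157848 (Gpc3, minus strand) and chrX:136676008-136676307 (Gpc4, minus strand) of GRCr8, as given by RefSeq. Capitals mark GC boxes, the letters GGGCGG or, on the other strand, CCGCCC.
Gpc3: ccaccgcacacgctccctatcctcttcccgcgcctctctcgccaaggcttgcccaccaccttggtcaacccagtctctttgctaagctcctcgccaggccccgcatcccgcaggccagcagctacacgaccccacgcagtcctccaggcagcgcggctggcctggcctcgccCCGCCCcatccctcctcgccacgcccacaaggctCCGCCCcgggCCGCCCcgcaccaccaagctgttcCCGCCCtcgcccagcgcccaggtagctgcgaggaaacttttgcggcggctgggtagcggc
Gpc4: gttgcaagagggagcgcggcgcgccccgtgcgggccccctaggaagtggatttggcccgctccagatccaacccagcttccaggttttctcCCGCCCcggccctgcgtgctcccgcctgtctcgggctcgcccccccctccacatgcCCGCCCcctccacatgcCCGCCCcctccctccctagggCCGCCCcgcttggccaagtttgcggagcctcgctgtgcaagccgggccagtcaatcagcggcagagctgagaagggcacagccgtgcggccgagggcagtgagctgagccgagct
Each holds 4 GC boxes, and 33.1% of 33469 promoters of the same length hold at least 1. The G and C content was 71.0% for Gpc3 and 71.3% for Gpc4, against a median of 51.7% over all promoters, and the number of CG pairs was 27 and 25 against a median of 7. Neither holds the letters TATAAA or CCAAT on either strand, found in 14.2% and 37.5% of all promoters. A promoter entry was matched for 5 of the 8 listed genes. The windows of Sdc1, Sdc3 and Sdc4 held 3, 4 and 5 GC boxes, with a G and C content of 64.7%, 79.3% and 68.7%. GC boxes and a high G and C content were thus not particular to Gpc3 and Gpc4. The CG pairs of Sdc1, Sdc3 and Sdc4 numbered 17, 57 and 26. None of these windows held TATAAA on either strand, and Sdc1 alone among them held CCAAT, at 1 place. These letters describe the windows and name no factor that binds them.

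Gpc3, which in mice restrains hedgehog signalling and body growth, was about 10.5-fold lower at P28. Gpc4 had a log2 fold change of -0.74 and did not pass, Gpc1 was higher in 3 of 4 P28 libraries than in any P18 library, and the 4 syndecans had overlapping libraries. Because the family was chosen for this comparison, its values are given as a description. Of the 7 genes, 1 (Gpc3) passed an adjusted p under 0.05 as lower, where 0.420% of all tested genes did, and 0 passed as higher, where 0.516% did (edgeR quasi-likelihood test). At an unadjusted p under 0.05 there were 2 lower and 1 higher, where 7.10% of all tested genes were lower and 7.45% higher. The DESeq2 Wald test and limma with voom each called 1 lower (Gpc3) and 0 higher; over all genes DESeq2 called 2.52% lower and 2.79% higher, and voom 1.26% lower and 1.67% higher. In 2 of the 7 genes every P28 library lay below every P18 library, as in 5.54% of all tested genes, and in 0 every P28 library lay above, as in 4.91%. The median log2 fold change over the 7 was -0.16, and 0.01 over all tested genes.

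Gpc3 had 6.17, 14.4, 14.8 and 7.49 CPM in P28 replicates 1 to 4, against 181, 53.0, 88.3 and 130 CPM in P18 replicates 1 to 4. Every P28 library was thus below every P18 library, by a gap larger than the whole range at P28 and smaller than the range at P18. The reads behind these levels were 105, 138, 182 and 36 counts at P28 and 1997, 1470, 2067 and 2554 counts at P18. The mean was 10.7 ± 4.54 CPM at P28 and 113 ± 55.0 CPM at P18 (SD, n = 4 each), a log2 fold change of -3.39 ± 0.45 (SE). Leaving out any 1 library, it lay between -3.64 and -3.07, and without P28 replicate 4, the library that stood apart, it was -3.26. In bulk tissue, fewer cells that make a transcript and less of it per cell cannot be told apart.

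Gpc4, a glypican also known for growth factor signalling, was measured at 65.1, 93.0, 104 and 51.0 CPM in P28 replicates 1 to 4, against 108, 147, 129 and 139 CPM in P18 replicates 1 to 4. The ages did not overlap, though P28 replicate 3 and P18 replicate 1 came close to each other. The log2 fold change was -0.74 ± 0.26 (SE), between -0.91 and -0.58 leaving out any 1 library, with -0.58 without P28 replicate 4; it did not pass. The count ratio of Gpc3 to its neighbour Gpc4 within a library does not depend on the scaling. It was 0.0947, 0.155, 0.142 and 0.147 in P28 replicates 1 to 4, against 1.68, 0.360, 0.682 and 0.934 in P18 replicates 1 to 4. All P28 ratios lay below all P18 ratios, a description only, since the family was chosen for the low Gpc3 level at P28.

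Gpc1, a glypican known as a co-receptor for fibroblast growth factors, had 1370, 792, 1423 and 1314 CPM in P28 replicates 1 to 4, against 1059, 812, 483 and 536 CPM in P18 replicates 1 to 4. P28 replicate 2 lay inside the P18 range and the other 3 P28 libraries above it. The log2 fold change was 0.76 ± 0.27 (SE), from 0.60 without P18 replicate 3 to 1.01 without P18 replicate 1, and 0.73 without P28 replicate 4. In GRCr8, Gpc1, Gpc3 and Gpc4 each overlap other annotated entries, as do Sulf1 and Furin, described below. Whether the counting used strand is not given in the sources used here. Reads of such overlaps may therefore be shared or left uncounted. The submitters name the build rn6, for which overlaps were not examined.

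**Figure D1:**
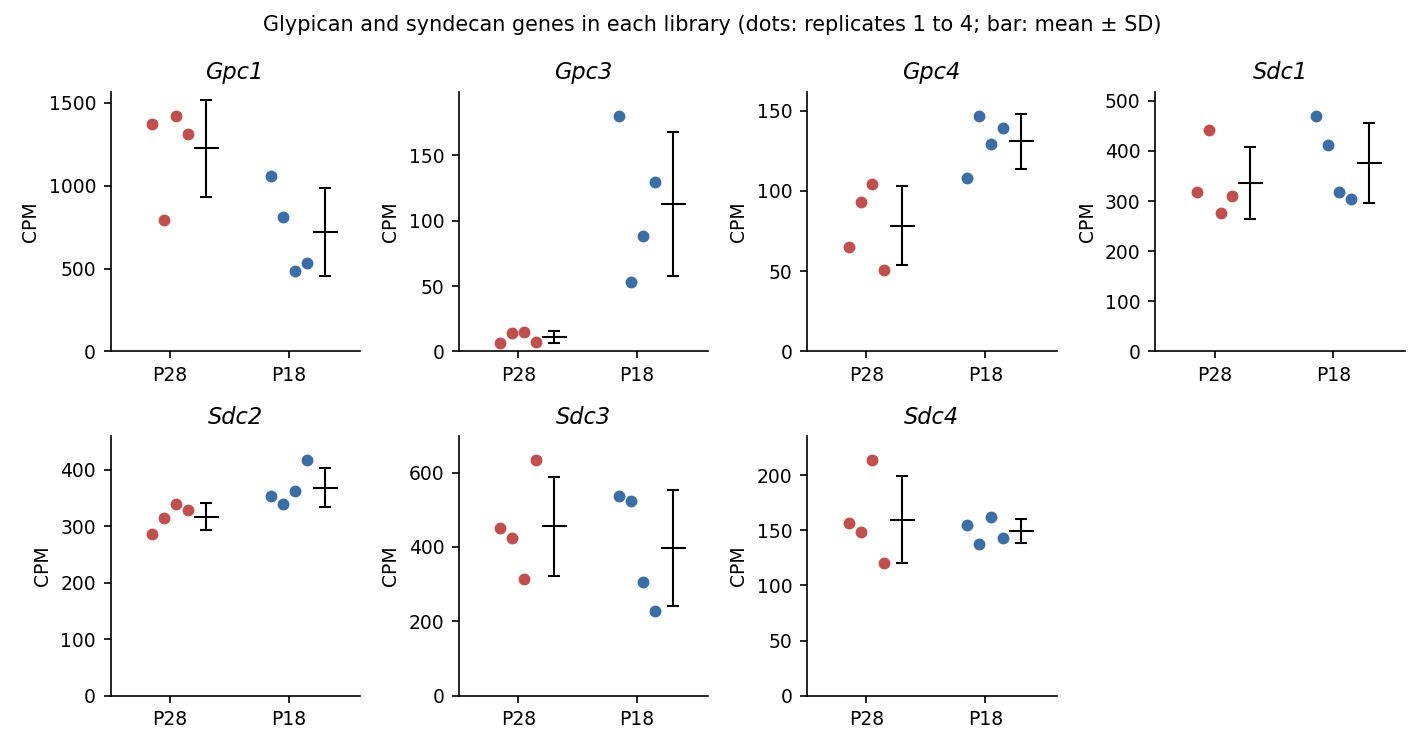
Level of each measured glypican and syndecan gene in CPM (vertical axes, starting at 0), with 1 dot per library and the mean ± SD beside the dots, P28 on the left and P18 on the right of each panel. The 4 Gpc3 dots at P28 lie between 6.17 and 14.8 CPM, all below the P18 dots, whereas the 4 syndecan panels show overlapping ages.

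The log2 fold changes of the 4 syndecans lay between -0.22 and 0.19, and none passed. Sdc1, the syndecan of epithelia and plasma cells, had 318, 441, 277 and 310 CPM in P28 replicates 1 to 4 and 471, 411, 319 and 304 CPM in P18 replicates 1 to 4. The groups overlapped, with a log2 fold change of -0.16 ± 0.21 (SE). The P28 library highest in Sdc1, replicate 2, also held the highest summed level of 5 epithelial markers (Krt5, Krt14, Krt17, Epcam and Cdh1), at 5425 CPM. The other P28 libraries had 42.2 to 1002 CPM of these markers and the P18 libraries 22.5 to 569 CPM; their part in the Sdc1 level was not tested. Leaving out P28 replicate 2 gave Sdc1 a log2 fold change of -0.32. Of the plasma cell markers, 3 of 4 were in the table, with a summed level of 319 to 789 CPM at P28 and 624 to 780 CPM at P18. Nearly all of this sum was Xbp1, which other secretory cells also express. Mzb1 was scarce, at 0 to 1.39 CPM at P28 and 2.13 to 12.4 CPM at P18. It had no overlap but did not pass (edgeR adjusted p = 0.246). Derl3 overlapped, at 0 to 15.6 CPM at P28 and 3.06 to 11.1 CPM at P18. The part of plasma cells in the Sdc1 level was not tested.

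Sdc2, the syndecan typical of mesenchymal cells, varied little within either age, with a coefficient of variation of 7.31% among P28 libraries and 9.32% among P18 libraries. Its levels were 285, 315, 339 and 328 CPM in P28 replicates 1 to 4 and 353, 339, 362 and 417 CPM in P18 replicates 1 to 4. The ranges met only at their edges, where P28 replicate 3 (339.2 CPM) stood just above P18 replicate 2 (338.7 CPM). Its log2 fold change was -0.22 ± 0.17 (SE).

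Sdc3, best known from nervous tissue, had 451, 423, 313 and 634 CPM in P28 replicates 1 to 4 and 538, 523, 305 and 227 CPM in P18 replicates 1 to 4. The spread within each age exceeded the difference between the ages, and the log2 fold change was 0.19 ± 0.30 (SE). It turned to -0.0012 without P18 replicate 4 and to -0.0096 without P28 replicate 4. Summed levels of 5 Schwann cell markers ran from 28.9 to 174 CPM at P28 and from 10.8 to 168 CPM at P18, and the libraries highest in these markers (P28 replicate 1 and P18 replicate 3) were not the highest in Sdc3; the part of Schwann cells in the Sdc3 level was not tested.

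Sdc4, the syndecan of focal adhesions, had 157, 148, 214 and 120 CPM in P28 replicates 1 to 4, while P18 replicates 1 to 4 held 155, 137, 162 and 143 CPM. The P28 libraries held both the highest and the lowest value, and the log2 fold change of 0.10 ± 0.21 (SE) turned to -0.08 without P28 replicate 3. Among the members, the coefficient of variation within an age was largest for Gpc3, at 42.3% at P28 and 48.7% at P18. Levels of different members are not ranked here, since no transcript lengths were used.

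**Figure D2:**
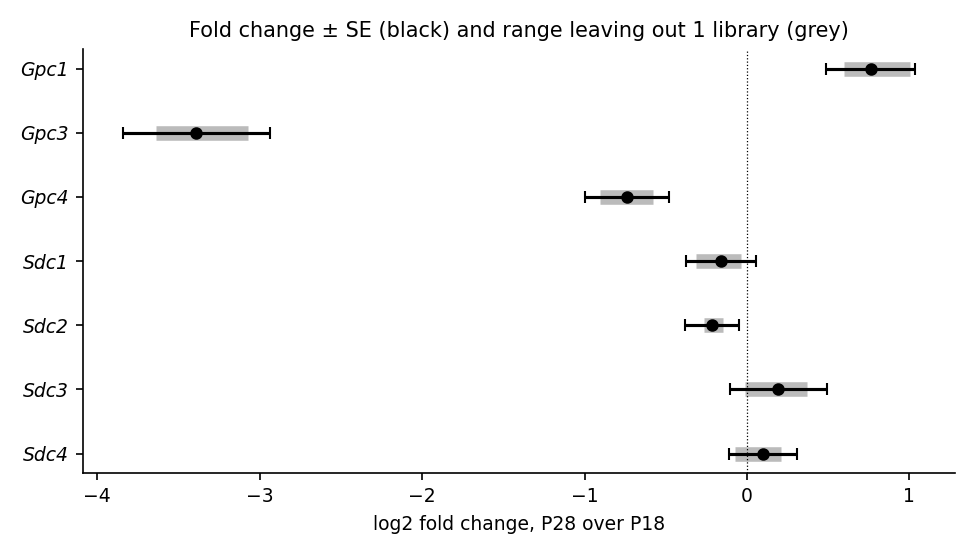
Log2 fold change of P28 over P18 (horizontal axis) for the 7 measured genes, with points and bars for the estimate ± SE and grey bands for the range over 8 fits that each left out 1 library. The band of Gpc3 runs from -3.64 to -3.07, and those of Sdc3 and Sdc4 reach across 0.

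The remaining glypican genes were scarce. Gpc2, a glypican of developing neurons, was tested and had 5.40, 1.15, 7.26 and 0 CPM in P28 replicates 1 to 4 and 1.99, 0.0720, 5.21 and 0.509 CPM in P18 replicates 1 to 4. Its 0 counts in P28 replicate 4 allow up to 0.624 CPM (3 counts, counting error only). Gpc5 fell short of the filter, with 1, 0, 1 and 0 counts in P28 replicates 1 to 4 and 14, 326, 20 and 1 counts in P18 replicates 1 to 4. Most Gpc5 reads came from P18 replicate 2 alone, so no fold is given. The counts of 0 allow up to 0.313 CPM in P28 replicate 2 and 0.624 CPM in P28 replicate 4.

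Markers of other cells in the captures were set beside Gpc3. The summed level of 5 enamel organ markers ran from 5.62 to 638 CPM at P28 and from 15.1 to 4790 CPM at P18, with 2 of the 4 tested markers (Ambn and Amtn) called lower and 0 higher (edgeR, adjusted p under 0.05). In P18 replicates 1 to 4 these markers summed to 4790, 378, 1313 and 15.1 CPM, where Gpc3 stood at 181, 53.0, 88.3 and 130 CPM. Erythroid markers (4 of 5 in the table) summed to 590 to 4015 CPM at P28 and 2373 to 7979 CPM at P18. Neutrophil markers (5 of 5) summed to 23.9 to 228 CPM at P28 and 33.2 to 861 CPM at P18. Pericyte and smooth muscle markers (5 of 5) summed to 227 to 698 CPM at P28 and 261 to 531 CPM at P18, and endothelial markers (5 of 5) to 337 to 664 CPM at P28 and 354 to 460 CPM at P18. Macrophage markers (5 of 5) summed to 285 to 983 CPM at P28 and 230 to 497 CPM at P18, osteoclast markers (3 of 5) to 1020 to 7744 CPM at P28 and 1449 to 1701 CPM at P18, and osteoblast and cementoblast markers (5 of 5) to 4862 to 10091 CPM at P28 and 3658 to 5676 CPM at P18. Besides the enamel organ markers, edgeR called Bglap (osteoblasts) and Acp5 (osteoclasts) higher and Tnmd (ligament fibroblasts) lower at P28. Of these 12 marker lists, the ligament list was the only one whose summed level did not overlap between the ages. Its sums nearly met, at 131201 CPM (lowest P28) and 129341 CPM (highest P18). Sums can hide single markers. Every P28 library lay above every P18 library for Pecam1 (endothelial), Cspg4 (pericytes) and Ibsp (osteoblasts), none of them called. The ages overlapped for the endothelial Cdh5, Kdr, Tek and Vwf, all with lower P28 means. They also overlapped for Acta2 (log2 fold change -2.07 ± 0.56), Rgs5, Myh11, Des, Sp7, Dmp1 and Alpl. The part of any of these cells in the Gpc3 difference was not tested.

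Genes whose level followed that of Gpc3 most closely were taken as those with the highest Pearson r of log2 CPM over the 8 libraries, among 7817 genes of sufficient level. They were Tle4 (r = 0.976), Tmem158 (0.970), Tm6sf1 (0.969), March7 (0.960) and Erh (0.959). The points of such an r share the 8 libraries and the contrast of the ages, so it describes likeness only. Tle4, a Groucho-type co-repressor, had 12.1 ± 1.05 CPM at P28 and 26.3 ± 5.92 CPM at P18 (SD, n = 4 each), with its lowest P18 level in replicate 2, as in Gpc3. Tmem158 had 39.1 ± 3.11 CPM at P28 and 76.5 ± 15.5 CPM at P18, and Tm6sf1 had 16.8 ± 2.93 CPM at P28 and 38.2 ± 9.06 CPM at P18. March7, a ubiquitin ligase, had 4.66 ± 2.27 CPM at P28 and 33.4 ± 3.05 CPM at P18, and Erh had 234 ± 9.92 CPM at P28 and 365 ± 12.3 CPM at P18. None of these 5 had a difference between the ages as large as that of Gpc3; their log2 fold changes ran from -2.84 (March7) to -0.64 (Erh). Within the family, r with Gpc3 was 0.80 for Gpc4 and for Sdc2, 0.34 for Sdc1, 0.0077 for Sdc4, -0.35 for Sdc3 and -0.67 for Gpc1.

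**Figure D3:**
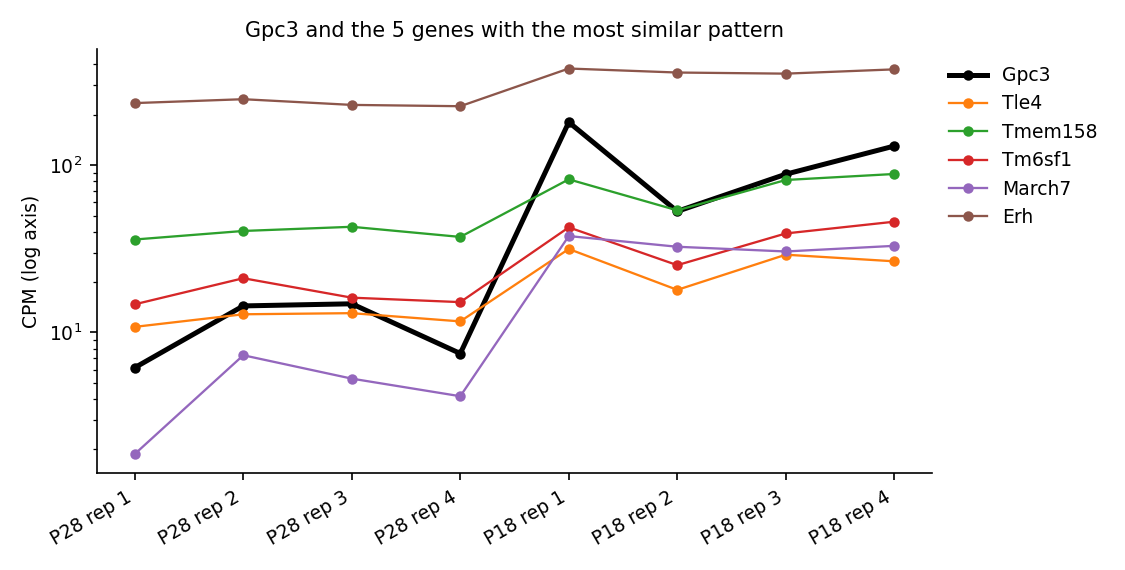
Level in CPM (vertical log axis) of Gpc3, drawn in black, and the 5 genes most like it, across the 8 libraries (P28 replicates on the left, P18 replicates on the right). Gpc3 lies at 6.17 to 14.8 CPM at P28 and 53.0 to 181 CPM at P18, and the other lines step the same way with smaller differences.

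Genes that build, edit, release and read heparan sulfate were taken as 8 lists with 136 different genes besides the family, of which 94 were tested. Of these, 1 was called higher at P28 (Sulf1) and 1 lower (Furin), and 92 did not pass (edgeR quasi-likelihood test, adjusted p under 0.05; 0.516% of all tested genes were called higher and 0.420% lower). The log2 fold changes were above 0 for 47 genes and below 0 for 47, with a median of 0.02. Ages without overlap were found in 10 of the 94, 5 in each direction, and in 10.4% of all tested genes. At an unadjusted p under 0.05 there were 9 higher and 8 lower, where 7.45% and 7.10% of all tested genes were. With the Wald test of DESeq2, 6 were higher and 2 lower (2.79% and 2.52% of all genes with an adjusted p), and with limma and voom 4 were higher and 3 lower (1.67% and 1.26% of all tested genes). Counts of single lists are read against the same shares, in both directions together 14.5% at an unadjusted p under 0.05.

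Sulf1, an extracellular endosulfatase that removes 6-O-sulfate groups from heparan sulfate chains, rose at P28. It had 111, 64.1, 82.4 and 80.3 CPM in P28 replicates 1 to 4, against 20.8, 35.0, 23.1 and 15.8 CPM in P18 replicates 1 to 4. All P28 libraries were above all P18 libraries, and the log2 fold change was 1.83 ± 0.33 (SE; edgeR adjusted p = 0.0279). Omitting P18 replicates 1, 2, 3 or 4 ended the call (edgeR adjusted p = 0.0580, 0.0577, 0.0994 and 0.0845), as did omitting P28 replicates 1 or 3 (0.113 and 0.0686), whereas it held without P28 replicates 2 or 4 (0.0307 and 0.0288). Sulf2, its close relative, had a log2 fold change of -0.17 ± 0.26. Of the 6 tested genes of sulfatases and chain degradation, 1 was called higher and 0 lower by edgeR, and at an unadjusted p under 0.05 there were again 1 and 0 (14.5% of all tested genes in both directions); DESeq2 and voom called Sulf1 alone. The heparanase gene Hpse, at 3.83 ± 1.94 CPM at P28 and 10.8 ± 13.4 CPM at P18, and the lysosomal enzyme genes Idua (log2 fold change 0.45 ± 0.38) and Arsb (0.39 ± 0.38) did not pass.

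Furin, a proprotein convertase that cleaves the core protein of Gpc3, fell at P28. It had 117, 154, 134 and 109 CPM in P28 replicates 1 to 4, against 291, 304, 225 and 213 CPM in P18 replicates 1 to 4. All P28 libraries were below all P18 libraries, and the log2 fold change was -1.003 ± 0.203 (SE; edgeR adjusted p = 0.0426). The call held only without P28 replicate 2 (edgeR adjusted p = 0.0366) among the 8 fits that left out 1 library; omitting P18 replicates 1 to 4 in turn ended it (0.0875, 0.160, 0.101 and 0.0845), as did omitting P28 replicates 1, 3 or 4 (0.131, 0.0982 and 0.0502). Of 17 tested genes of shedding and core processing, 0 were called higher and 1 lower by edgeR, 2 and 2 at an unadjusted p under 0.05 (14.5% of all tested genes), 1 (Mmp9) and 1 (Furin) by DESeq2, and 0 and 2 (Furin and Adamts1) by voom. Mmp9, one of the proteases that release syndecan ectodomains, had 333, 14.8, 449 and 18.7 CPM in P28 replicates 1 to 4 and 1.27, 9.76, 1.79 and 25.7 CPM in P18 replicates 1 to 4. The P28 libraries high in Mmp9, replicates 1 and 3, were those with the highest sums of osteoclast markers, a list that holds Mmp9 itself (5441 and 7744 CPM). Mmp14, a membrane-bound protease, and Adamts1, a secreted one, differed by 0.78 ± 0.34 and -1.27 ± 0.42 on the log2 scale and did not pass (edgeR adjusted p = 0.308 and 0.179). Notum, a further gene of this list, was scarce, at 0 to 2.51 CPM at P28 and 0.720 to 5.97 CPM at P18.

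**Figure D4:**
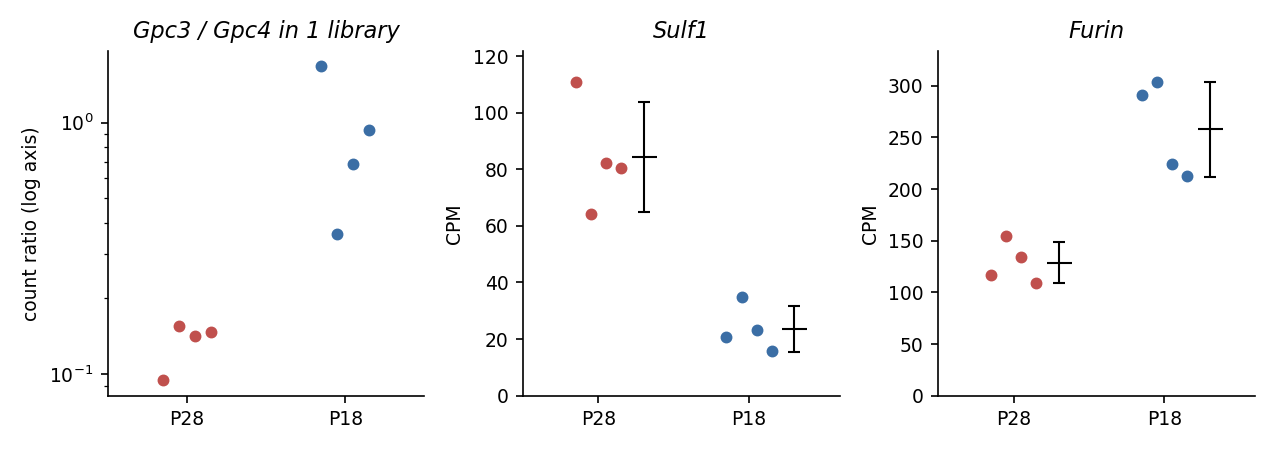
Left, the count ratio of Gpc3 to Gpc4 within each library on a log axis; middle and right, the levels of Sulf1 and Furin in CPM with the mean ± SD beside the dots (1 dot per library, P28 left of P18). The ratio lies between 0.0947 and 0.155 at P28 and between 0.360 and 1.68 at P18.

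Enzymes that start and extend the chains held 0 calls in either direction by edgeR among 10 tested genes, with 1 higher and 2 lower at an unadjusted p under 0.05 (14.5% of all tested genes); DESeq2 called B3gat3 alone and voom 0. B3gat3, which completes the linker between core protein and chain, had 254 ± 51.2 CPM at P28 and 137 ± 20.9 CPM at P18, 0.89 ± 0.21 on the log2 scale (edgeR adjusted p = 0.0753). B3galt6, which adds a galactose of the same linker, Pxylp1, which removes the xylose phosphate, and Ext2, a subunit of the chain polymerase, had log2 fold changes of -1.57 ± 0.58, -0.62 ± 0.25 and -0.67 ± 0.31. The partner of Ext2, Ext1, had one of -0.13 ± 0.21.

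Chain modification genes likewise held 0 calls by edgeR among 12 tested, with 0 higher and 1 lower at an unadjusted p under 0.05 (14.5% of all tested genes) and Papss1 called lower by DESeq2 and by voom. Papss1, which makes the sulfate donor of the sulfotransferases, had 75.7 ± 7.69 CPM at P28 and 139 ± 21.01 CPM at P18, -0.88 ± 0.21 on the log2 scale (edgeR adjusted p = 0.0753). Slc35b2, which carries that donor into the Golgi, had a log2 fold change of -0.44 ± 0.24. The sulfotransferase genes Hs3st1 and Ndst1 were low, with 6.23 ± 4.33 and 2.13 ± 1.65 CPM at P28 and 18.5 ± 10.1 and 8.31 ± 7.79 CPM at P18, and did not pass.

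Among other genes for proteoglycans that can carry heparan sulfate, 0 of 6 tested were called by edgeR, with 1 higher and 0 lower at an unadjusted p under 0.05 (14.5% of all tested genes); DESeq2 and voom each called Cd44 higher. Cd44, a hyaluronan receptor with variants that carry the chain, had 131 ± 22.8 CPM at P28 and 69.2 ± 10.2 CPM at P18, with no overlap and a difference of 0.92 ± 0.22 on the log2 scale (edgeR adjusted p = 0.0773). Agrn (agrin), Srgn (serglycin) and Spock2 (a testican) had log2 fold changes of 0.41 ± 0.34, -0.34 ± 0.36 and -0.95 ± 1.07.

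Partners of the syndecan tail and of syndecan adhesion held 0 calls by edgeR among 12 tested, with 1 higher and 1 lower at an unadjusted p under 0.05 (14.5% of all tested genes); DESeq2 and voom each called Fn1 higher. Fn1 (fibronectin) had 1000.2 ± 229 CPM at P28 and 546 ± 199 CPM at P18, 0.87 ± 0.27 on the log2 scale (edgeR adjusted p = 0.144), with overlap between the ages. Sdcbp, the gene of syntenin, which binds syndecan tails, had a log2 fold change of -0.62 ± 0.27. Prkca, a kinase that binds the Sdc4 tail, had 7.98 ± 6.16 CPM at P28 and 19.3 ± 3.87 CPM at P18, and the integrin gene Itgb5 a log2 fold change of -0.52 ± 0.27; neither passed.

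Of 9 tested hedgehog pathway genes, 0 were called by edgeR, DESeq2 or voom, and 0 had an unadjusted p under 0.05 (14.5% of all tested genes). The signal transducer Smo had 38.3 ± 21.7 CPM at P28 and 67.7 ± 25.5 CPM at P18. The receptor and target gene Ptch1 had 11.1 ± 6.18 CPM at P28 and 5.14 ± 0.812 CPM at P18. The transcription factor genes Gli2 and Gli3 had log2 fold changes of -2.06 ± 1.14 and -0.80 ± 0.70. Over the 9 tested genes the standard errors of the log2 fold changes ran from 0.52 (Smo) to 1.89 (Scube1). Even the Gli2 difference did not pass (edgeR adjusted p = 0.443), so differences well above 1 standard error could be missed here.

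Heparan-binding growth factors and their receptors held 0 calls by edgeR among 22 tested, with 3 higher and 2 lower at an unadjusted p under 0.05 (14.5% of all tested genes); DESeq2 and voom each called Ptn higher. Ptn (pleiotrophin), a heparin-binding cytokine that binds Sdc3, had 409 ± 105 CPM at P28 and 231 ± 13.2 CPM at P18, with no overlap and a difference of 0.82 ± 0.20 on the log2 scale (edgeR adjusted p = 0.0818). Its relative Mdk (midkine) lay the other way, at 421 ± 174 CPM at P28 and 701 ± 101 CPM at P18 (-0.74 ± 0.29, edgeR adjusted p = 0.256), also with no overlap. Pdgfa had 93.5 ± 15.6 CPM at P28 and 58.4 ± 15.3 CPM at P18, and Wnt11 had 17.5 ± 11.9 CPM at P28 and 56.4 ± 22.3 CPM at P18. Igf2, an imprinted growth factor gene, had a log2 fold change of 0.73 ± 0.39.

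**Figure D5:**
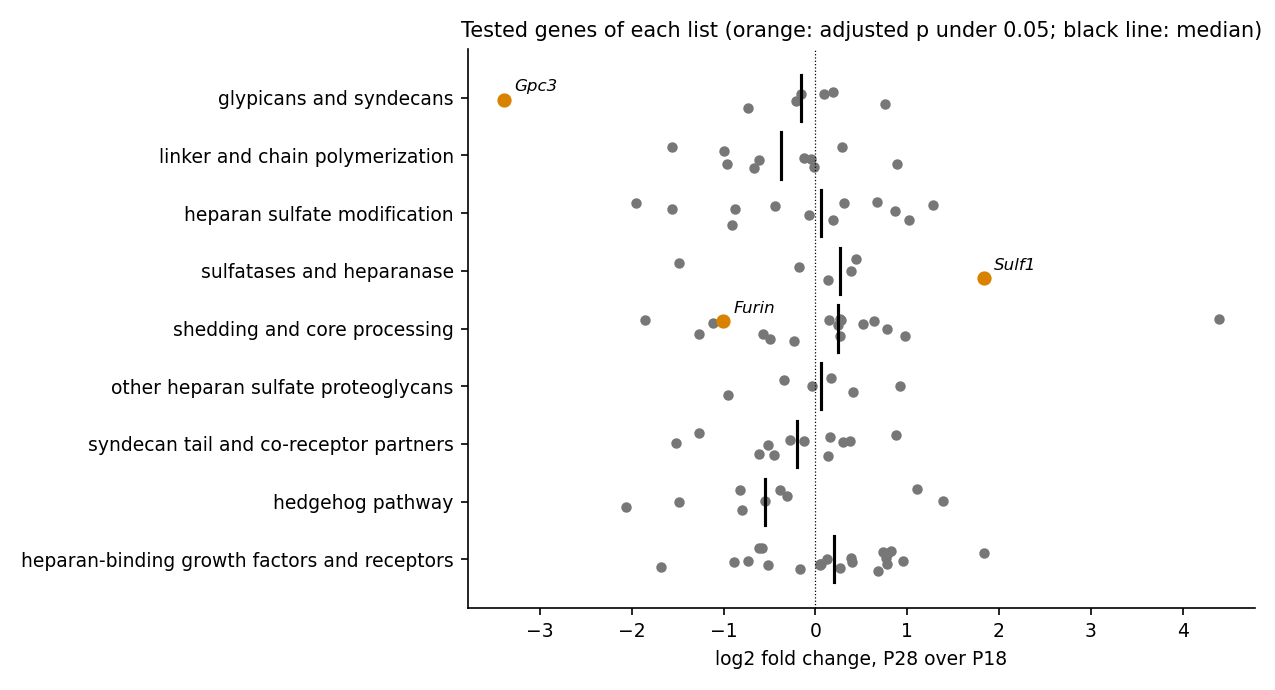
Log2 fold change of P28 over P18 (horizontal axis) of each tested gene in the glypican and syndecan family and in 8 lists of heparan sulfate genes (rows), with the list median as a black line and genes past an adjusted p of 0.05 in orange. Gpc3 lies at -3.39, Sulf1 at 1.83 and Furin at -1.003; the medians run from -0.55 (hedgehog pathway) to 0.26 (sulfatases and heparanase).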

How the data were processed

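RNA was sequenced from laser-captured cervical PDL after library preparation with the SMARTer Ultra Low input kit, per the labels' protocols. The authors deposited raw counts per gene symbol; the tools STAR 2.5.3a, HTSeq 0.9.1 and edgeR 3.16.5 and the build rn6 are named in the submitters' processing notes, with no role for each and no annotation. The 40 columns of other samples in the count table were not used, nor was the deposited normalized table. Libraries were grouped by labelled age and numbered by labelled subject; each was taken as 1 animal.

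Counts were tested with edgeR 4.0.16 in R 4.3.3 (quasi-likelihood, 2-sided, TMM scaling, age as the only term, filter by age with minimum count 10), with Benjamini-Hochberg adjustment over 10472 genes and a threshold of 0.05. CPM used TMM-scaled library sizes; log2 CPM used a prior count of 2. The SE is the size of the log2 fold change over the root of its F statistic. Alternatives used DESeq2 1.42.0 and limma 3.58.1, other scalings and filters, and omission of each library.

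The family and all lists were chosen with earlier results of these data known. Text genes outside the family are, per list, those called and the 4 lowest p; genes like Gpc3 are the 5 with highest r at a mean log2 CPM of at least 3. Sulf2, Ext1, Notum and Igf2 were added after their values were seen. Levels per coding length were planned and not made, as no protein lengths were used. Total counts of 5252693 to 26645656 set the precision; limits from 0 counts cover counting error only, as no molecular identifiers are named and PCR copies are not independent.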

Additional observations from a re-analysis of the deposited data

Results flagged for a closer look

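Levels of 41 genes were checked within each age for a library far from the other 3, over 82 groups of 4 libraries; 4 groups were flagged, and chance flags about 1 in 20. Gpc5 stood at 11.7 CPM in P18 replicate 2, where the next P18 library had 1.27 CPM. B3gat3 was lowest in P28 replicate 2, at 178 CPM against 273 CPM in the next. Pxylp1 was highest in P18 replicate 1, at 326 CPM against 184 CPM in the next. Spock2 stood at 70.5 CPM in P28 replicate 4, the library that stood apart, against 8.98 CPM in the next P28 library.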

How the results depend on the processing

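Gpc3 kept its direction in all 15 alternatives, with log2 fold changes from -3.64 to -3.07, and passed in 14. The family was chosen for the low Gpc3 level at P28 in these same libraries, so these refits describe the processing only. The 4 subject numbers are shared between ages but mark different animals as far as the labels say, and same-numbered libraries did not deviate together (r from -0.0196 to 0.0019; 0 of 4 P28 libraries correlated best with their own number). With the subject number as a replicate block, 16 genes were called higher and 10 lower, 0 family members were called lower (Gpc3 adjusted p = 0.0525), and 0 pathway genes were called in either direction (Sulf1 and Furin both 0.0868). Against 54 higher and 44 lower, the DESeq2 Wald test called 290 and 262 genes and voom 175 and 132; leaving out 1 library gave 4 to 110 higher and 5 to 105 lower. Against 98 genes called in both directions, fits without P28 replicates 1 to 4 called 16, 136, 31 and 215 genes, of which 15, 83, 27 and 88 were among the 98. Fits without P18 replicates 1 to 4 called 56, 9, 23 and 24, of which 45, 9, 21 and 22 were. For pathway genes, against 1 and 1, the DESeq2 Wald test gave 6 higher and 2 lower, voom 4 and 3, and leaving out 1 library 0 to 2 higher and 0 to 1 lower. The sign turned for Sdc3 without P18 replicate 4 (-0.0012) and without P28 replicate 4 (-0.0096), against 0.37 at most over the fits without 1 library, for Sdc4 without P28 replicate 3 (-0.0765), against 0.21 at most, and for Hpse with voom (1.87) and with the replicate block (0.89); the cause was not tested. Of 600 values of single genes, 565 kept their direction and side of the threshold, 16 lost a call and 14 gained one. DESeq2 gave 66 genes no adjusted p. The shallowest library has 36 Gpc3 counts, and no protein lengths were used, so the order of levels was not run.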
